A study of Homo sapiens with 6 samples.

Results

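Amino acid transporters are the membrane carriers through which a cell takes up, exchanges and recycles amino acids at the plasma membrane and across the lysosome. A set of 36 such genes of the solute carrier (SLC) families was listed by symbol, and a gene was followed where an Ensembl identifier of that symbol had a row in the deposited table. Of the 36 genes, 29 had a row and 25 passed the low-value filter, an average of 10 or more normalized counts across the 6 libraries, which left 21703 of 59192 features to be tested. The 7 genes that were not measurable by this rule were SLC7A1, SLC1A2, SLC6A15, SLC38A3, SLC38A6, SLC38A10 and SLC16A10. The table also holds 33265 loci named only by a transcript assembler, and whether any of them covers one of these 7 genes cannot be read from the values.

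The study compared SW480 cells, a human colorectal cancer line, with reduced expression of heparanase (HPSE, the endoglycosidase that cleaves heparan sulfate) against control cells, in 3 libraries each from independent experiments. Both lines stably carried Cas9 after infection with Lenti-CAS9-puro and puromycin selection, and both were then infected with an sgRNA-EGFP lentivirus. SW480-45 is labelled as the HPSE knockdown and was taken as the line infected with the KD1 guide, which targets exon 4 of HPSE, while SW480-NC received a control guide. Whether each line was a single clone or a pool is not given in the sources used here. All cells were grown in DMEM with fetal calf serum, a medium that itself supplies amino acids.

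Several transporter classes divide the work. Obligatory exchangers swap an internal amino acid for an external one, and so depend on sodium-coupled carriers that load the cell. The light chains of the SLC7 family reach the plasma membrane bound to a heavy chain of the SLC3 family, and carriers in the lysosomal membrane return amino acids from protein breakdown and report on them to the growth kinase complex mTORC1. Many colorectal cancer cells express high levels of the glutamine carrier SLC1A5 and of the leucine exchanger SLC7A5.

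The upstream sequences of 3 transporters are shown because the 1 gene past the adjusted threshold, the gene closest to it and the gene with the largest difference differed in the motifs found there. They are RefSeq sequences on GRCh38.p14, the 250 bases before the annotated transcription start, printed 5′ to 3′ on the strand of the gene. SLC6A9 lies at chr1:44031463-44031712 on the minus strand, SLC38A5 at chrX:48470261-48470510 on the minus strand and SLC7A6 at chr16:68264276-68264525 on the plus strand. Capitals mark matches to 3 motifs searched on both strands, namely TGATGNAA of the ATF4 and C/EBP factors, the antioxidant response core TGACNNNGC and the E-box CACGTG.
SLC6A9: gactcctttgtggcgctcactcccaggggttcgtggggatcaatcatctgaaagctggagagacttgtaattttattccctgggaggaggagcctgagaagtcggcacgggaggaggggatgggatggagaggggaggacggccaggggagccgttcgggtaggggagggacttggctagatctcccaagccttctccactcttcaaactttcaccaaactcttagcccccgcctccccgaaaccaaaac
SLC38A5: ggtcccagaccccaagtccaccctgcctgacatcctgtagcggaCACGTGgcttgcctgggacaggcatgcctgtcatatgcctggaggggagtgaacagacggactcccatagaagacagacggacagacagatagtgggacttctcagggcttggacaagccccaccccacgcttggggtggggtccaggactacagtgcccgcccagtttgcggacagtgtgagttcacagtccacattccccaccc
SLC7A6: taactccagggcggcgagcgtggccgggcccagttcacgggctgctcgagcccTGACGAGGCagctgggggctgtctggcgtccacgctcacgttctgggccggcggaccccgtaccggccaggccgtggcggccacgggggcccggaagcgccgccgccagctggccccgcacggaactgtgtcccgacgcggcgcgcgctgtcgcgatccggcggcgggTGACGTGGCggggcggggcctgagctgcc

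The SLC6A9 window held no match to the 3 motifs, the SLC38A5 window held 1 E-box and the SLC7A6 window held 2 antioxidant response cores. RefSeq promoters of 300 bases, which run 50 bases past the start, were matched for 29 of the 36 genes. TGATGNAA was found in 3.62% of all 35116 promoters and in 6 of these 29 genes, SLC1A3, SLC1A4, SLC1A5, SLC38A1, SLC3A2 and SLC7A1. TGACNNNGC was found in 13.3% of all promoters and in 8 of the 29 genes, and CACGTG in 7.26% and in 8 genes. Genes with several annotated starts had more than 1 chance to match, since the 29 genes hold 50 promoters, and a match describes letters and no site of binding.

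The libraries held 33221323 to 39802365 reads in the table, and 1 read was worth 0.903 to 1.06 normalized counts. HPSE (ENSG00000173083), the targeted gene, was measured at 136, 172 and 146 normalized counts in SW480-45 and at 269.9, 295 and 246 in SW480-NC. The groups did not overlap, and 56.1% of the control mean was left, a log2 difference of -0.83 (95% interval -1.17 to -0.50) with a limma adjusted p of 0.0547. These are RNA values, and the paper reported the knockdown of HPSE from western blots of the protein. Of the 6 colorectal epithelial markers 4 had a row (EPCAM, KRT8, KRT19 and VIL1), and their sum was 106628 to 115202 normalized counts in SW480-45 and 120998 to 127930 in SW480-NC. Most of this sum was KRT8, at 70496 to 78795 and 84092 to 90059, while VIL1 was higher in SW480-45, at 8854 to 9508 and 7576 to 8524. Of 8 markers of other cell types 4 had a row (PECAM1, VWF, COL1A1 and ALB), with a sum of 264.7 to 386.5 in SW480-45 and 214.4 to 272.0 in SW480-NC and ALB at 0 in 5 of 6 libraries. COL1A1 made most of this sum, at 226.1 to 358.5 in SW480-45 and 198.3 to 252.1 in SW480-NC. Fewer cells of a type and less RNA per cell cannot be told apart in such bulk libraries, and the part of these marker levels in the transporter results was not tested.

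The comparison asked which of the amino acid transporters differed between HPSE-knockdown cells and their controls. One of them, the glycine carrier SLC6A9, rose at a limma adjusted p under 0.05, where 0.802% of all tested features passed (0.332% higher and 0.47% lower). Its difference was smaller than 2-fold, and 0.24% of all features passed both the adjusted p and a 2-fold change. At an unadjusted p under 0.05, 10 of the 25 tested transporters (40.0%) differed, against 16.2% of all tested features. Of these 10, SLC6A9, the taurine carrier SLC6A6 and the exchanger SLC7A7 were on the higher side in SW480-45, where the share over all features is 8.1%. The 7 others, SLC7A6, SLC3A1, SLC1A1, SLC6A20, SLC38A1, SLC38A5 and SLC36A4, were on the lower side, where the share is 8.15%. At higher levels such p-values were more frequent, and of the 21 transporters that averaged 500 or more normalized counts 8 (38.1%) did so, beside 21.5% of the 6774 Ensembl features at that level.

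Small differences of both signs made up most of the set. Differences were positive for 12 and negative for 13 of the 25 transporters, with a median log2 difference of -0.07 beside -0.0048 over all features, and a median absolute difference of 0.18 beside 0.20. Of the 25, 21 averaged 500 or more normalized counts. Among the Ensembl features at that level the median difference was -0.03 and the median absolute difference was 0.12. For 18 transporters the difference was within 0.25 on the log2 scale, and for 15 the whole 95% interval was within 0.5 on either side of 0. All 3 SW480-45 libraries lay on one side of the 3 SW480-NC libraries for 10 transporters, 2 higher and 8 lower. This was so for 23.4% of all tested features, 11.4% higher and 12% lower. At an average of 500 or more it was so for 8 of the 21 transporters and for 29.4% of the Ensembl features. The members were chosen with earlier results of these data known, so these counts are a description of the list.

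**Figure D1:**
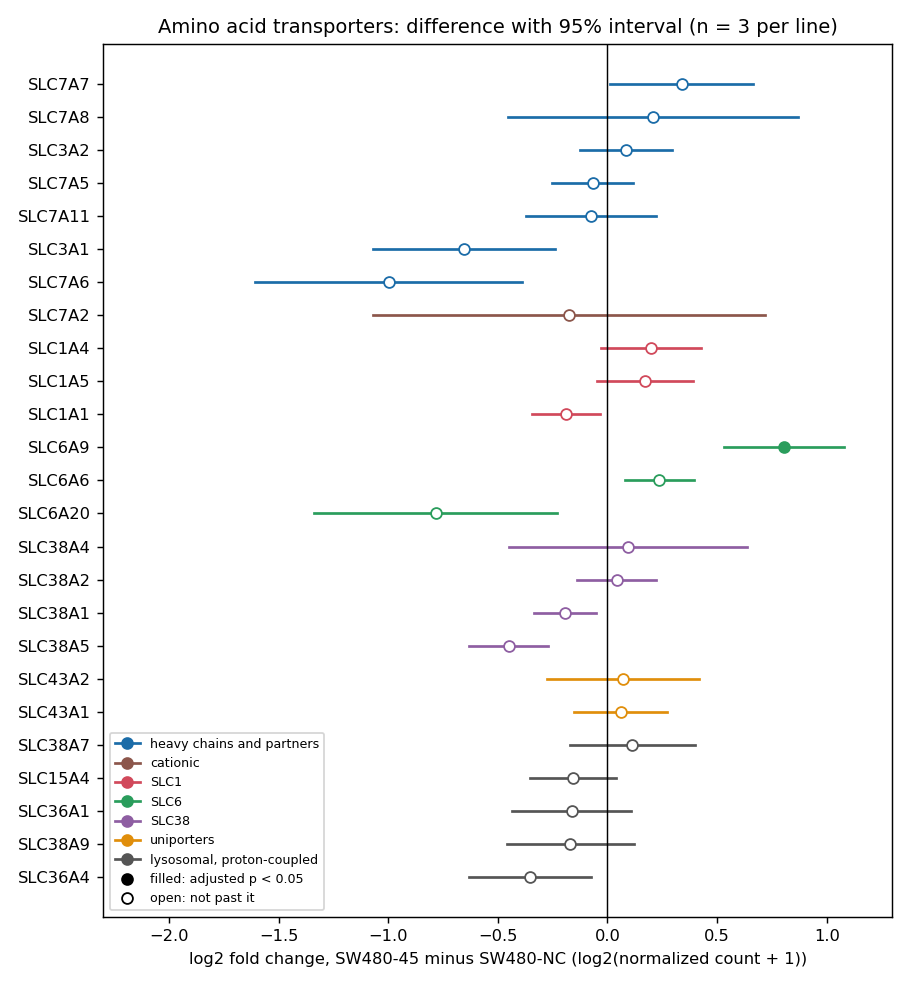
Log2 difference of each of the 25 tested transporters, SW480-45 minus SW480-NC on log2(normalized count + 1), with its 95% interval from limma (n = 3 libraries per line), coloured by role. The filled point, SLC6A9 at 0.80, is the one past an adjusted p of 0.05, and SLC7A6 at -0.998 has the largest difference but a wide interval.

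The plot of differences by role shows 2 kinds of wide interval, those of genes with few counts such as SLC7A8 and SLC6A20 and those of SLC7A6 and SLC7A2, in which 1 SW480-45 library lay apart from the other two. Of the abundant carriers, SLC1A5, SLC7A5, SLC38A2 and SLC3A2 have short intervals that include 0, and those of SLC38A1, SLC38A5 and SLC6A6 leave it out.

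Of the 6 neurotransmitter-type SLC6 carriers, which drive uptake with sodium, 3 were tested. All 3 differed at an unadjusted p under 0.05, where the share over all features is 16.2%. SLC6A9 (ENSG00000196517, chr1:43991500-44031467 on the minus strand, GENCODE 29 on GRCh38) carries glycine, a precursor of glutathione, purines and haem. Its values were 770.8, 746.9 and 760.3 normalized counts in SW480-45 and 469.7, 372.8 and 467.6 in SW480-NC. The lowest SW480-45 library lay well above the highest control library, and the SW480-45 libraries were nearly level with each other. The means were 759 ± 12 and 437 ± 55.3 (SD, n = 3), which puts SW480-45 at 174% of the control, with a log2 difference of 0.80 ± 0.12 (SE; 95% interval 0.53 to 1.08) and a limma adjusted p of 0.0378. When 1 library was left out the difference stayed between 0.69 and 0.86, but the limma adjusted p was 0.0621 to 0.154, above 0.05 in each of the 6 cases. Over all 21703 features, 29 to 93 passed in these 6 fits, beside 174 with all libraries. With edgeR and DESeq2 on the recovered reads the adjusted p of SLC6A9 was 0.0434 and 6.81e-06. Limma without its intensity trend gave 0.124, in a fit where 11 of all features passed. SLC6A9 shares 7.83% of its exon bases with CCDC24, a protein-coding gene on the other strand that has no row. The part of CCDC24 in these values was not tested.

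SLC6A6 supplies taurine, the free amino sulfonic acid that cells use to regulate their volume. Its values were 9303, 9783 and 9654 in SW480-45 and 7613, 8106 and 8698 in SW480-NC, so the groups lay apart, with SW480-45 higher. The log2 difference was 0.24 (95% interval 0.08 to 0.39) with a limma adjusted p of 0.16. SLC6A20, a carrier of proline and other imino acids, was the least abundant transporter tested, at 34.8, 56.9 and 36.7 normalized counts in SW480-45 and 74.3, 66.6 and 77.4 in SW480-NC. Here SW480-45 was lower in each library, at 58.8% of the control mean, and the log2 difference of -0.78 (95% interval -1.34 to -0.23) had a limma adjusted p of 0.182. Both carriers best known from epithelial brush borders, SLC6A14 and SLC6A19, were under the filter. SLC6A14 was at 0 reads in the 3 SW480-45 libraries and at 2, 4 and 3 reads in SW480-NC, at or near the floor of 3 reads that a count of 0 allows, and no fold was taken.

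The SLC38 carriers of the plasma membrane move small neutral amino acids with sodium, and 4 of the 7 were tested. SLC38A5 (ENSG00000017483, chrX:48458537-48470256 on the minus strand), a carrier of glutamine, histidine and asparagine that also exchanges protons, was measured at 6075, 6683 and 6779 normalized counts in SW480-45 and at 8627, 8429 and 9660 in SW480-NC. The highest SW480-45 library was below the lowest control library. The means of 6512 ± 382 and 8905 ± 661 differed by -0.45 on the log2 scale (SE 0.08, 95% interval -0.63 to -0.27) with a limma adjusted p of 0.0564, just outside the threshold. It passed in 5 of the 12 alternatives that keep all 6 libraries and in 0 of the 6 limma fits that leave 1 out, where the adjusted p ran from 0.0822 to 0.211.

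SLC38A1, which loads cells with glutamine, showed a smaller difference at a higher level. The SW480-45 libraries held 23978, 23600 and 25720 normalized counts and the SW480-NC libraries 28890, 28714 and 26245, which leaves a narrow gap between SW480-45 library 3 and SW480-NC library 3. The log2 difference was -0.19 (95% interval -0.34 to -0.05, limma adjusted p 0.198). SLC38A2, the carrier that cells induce when amino acids run short, was at 12679, 11744 and 13539 in SW480-45 and at 12309, 13113 and 11460 in SW480-NC. Its groups overlapped, and the log2 difference of 0.04 had an interval of -0.14 to 0.22. SLC38A4, a relative best known from liver, was low at 67.9 to 108.8 normalized counts with overlapping groups and a difference of 0.09 (-0.45 to 0.64). SLC38A1, SLC38A2 and SLC38A4 lie in one stretch of chromosome 12, between 46183063 and 46832408 in GENCODE 29, and of these 3 SLC38A1 reached an unadjusted p under 0.05. Whether their differences differ from each other was not tested.

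**Figure D2:**
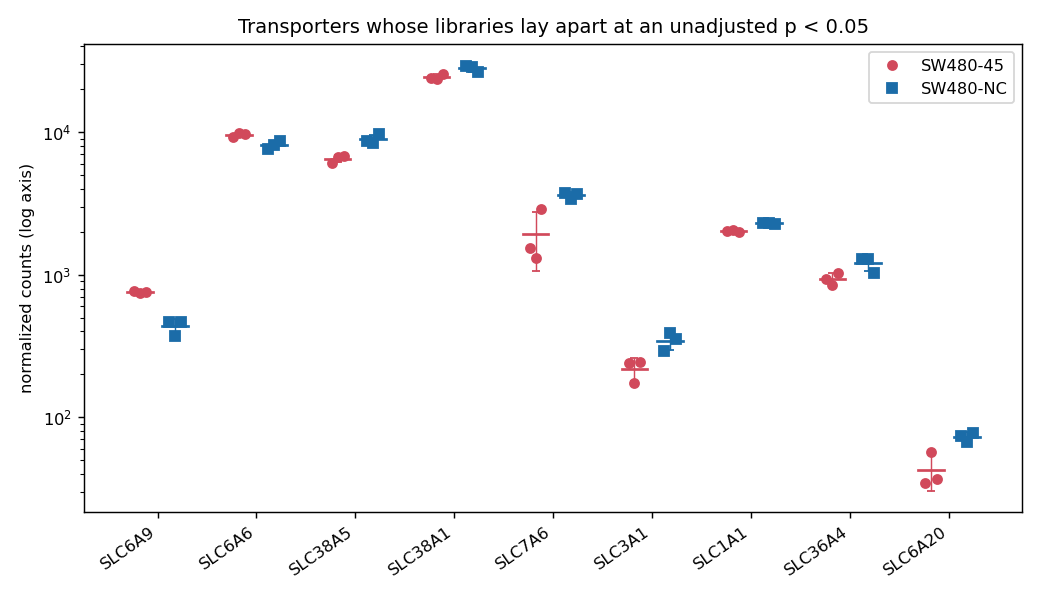
Normalized counts (log axis) in each library for the 9 transporters whose SW480-45 libraries (circles) and SW480-NC libraries (squares) did not overlap at an unadjusted p under 0.05. Horizontal bars are means and error bars are SD (n = 3). SLC6A9 and SLC6A6 lie higher in SW480-45 and the other 7 lower, and SLC7A6 shows 1 SW480-45 library at 2900 above the other two at 1529 and 1320.

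The plot of single libraries shows that the gap between the lines is wide beside the scatter for SLC6A9, SLC38A5 and SLC1A1 and narrow for SLC38A1 and SLC36A4, where the nearest libraries of the 2 lines almost touch. In SLC7A6 and SLC6A20 the scatter is mostly within SW480-45.

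The heteromeric carriers hold 2 heavy chains and 6 light chains, of which 7 genes were tested and 1 was higher and 2 were lower at an unadjusted p under 0.05 (8.1% and 8.15% over all features). SLC7A6 (ENSG00000103064, chr16:68264516-68301823 on the plus strand) exchanges internal arginine and lysine for external neutral amino acids and sodium, and pairs with SLC3A2. It had the largest difference of the 25 transporters. Its values were 1529, 1320 and 2900 normalized counts in SW480-45 and 3723, 3391 and 3697 in SW480-NC. The groups did not overlap, but SW480-45 library 3 stood closer to the controls than to the other 2 libraries of its line. The means were 1916 ± 858 and 3604 ± 185, a log2 difference of -0.998 (SE 0.26, 95% interval -1.61 to -0.39) with a limma adjusted p of 0.138. Without SW480-45 library 3 the difference was -1.34 with a limma adjusted p of 0.0110, and with DESeq2 on all libraries the adjusted p was 0.0101. In the other 16 alternatives SLC7A6 did not pass, with edgeR at 0.181 and with a difference of -0.77 when SW480-45 library 2 was left out (limma adjusted p 0.336). SLC7A6 shares 44.4% of its exon bases with SLC7A6OS on the other strand, and the strand setting of the counting is not given in the sources used here. SLC7A6OS itself was at 565, 571 and 485 in SW480-45 and at 469, 569.8 and 512 in SW480-NC, a log2 difference of 0.06 (-0.21 to 0.34).

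SLC3A1 is the heavy chain of the cystine and dibasic amino acid exchanger of kidney and intestine. It was measured at 240.4, 174.3 and 244.9 normalized counts in SW480-45 and at 291.8, 392.1 and 352.0 in SW480-NC, with no overlap and SW480-45 at 63.7% of the control mean. The log2 difference was -0.66 (95% interval -1.07 to -0.24, limma adjusted p 0.146), and DESeq2 gave an adjusted p of 0.0481. Its usual light chain, SLC7A9, was under the filter, with 0 to 6 reads per library. SLC3A1 shares 29.4% of its exon bases with the antisense gene PREPL, whose levels of 4029 to 4426 in SW480-45 and 3612 to 5037 in SW480-NC overlapped. It also shares 26.9% with AC013717.1, a protein-coding gene on the same strand that has no row, so its reads cannot be told from those of that gene there.

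The other heavy chain, SLC3A2, and its most abundant partner SLC7A5 differed little. SLC3A2, which brings 5 of the light chains tested here to the cell surface, was at 7647, 7002 and 7001 in SW480-45 and at 6527, 6271 and 7691 in SW480-NC, a log2 difference of 0.08 (-0.13 to 0.29). SLC7A5, the leucine and aromatic amino acid exchanger, was at 26506, 26727 and 22591 in SW480-45 and at 28043, 25051 and 26236 in SW480-NC, a difference of -0.07 (-0.25 to 0.12). For both genes the groups overlapped, and the intervals leave out changes of 0.5 on the log2 scale in either direction. SLC7A11, which imports cystine in exchange for glutamate and so feeds glutathione synthesis, was at 5823, 7902 and 7184 in SW480-45 and at 6784, 6904 and 8269 in SW480-NC. Its difference of -0.08 (-0.37 to 0.22) changed sign when SW480-45 library 1 or SW480-NC library 3 was left out.

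SLC7A7, which does the same exchange as SLC7A6 and is the one that exports dibasic amino acids from the intestinal epithelium, was on the other side. It was at 1009, 1029 and 758 normalized counts in SW480-45 and at 665, 737 and 793 in SW480-NC. Libraries 1 and 2 of SW480-45 were above the controls and library 3 was among them. The log2 difference was 0.34 (95% interval 0.01 to 0.67, limma adjusted p 0.293). In SW480-45 library 3 SLC7A7 was therefore the lowest of its line and SLC7A6 the highest, each the library nearest to its controls. SLC7A8, an exchanger of neutral amino acids found on the blood side of epithelia, was low at 116, 140 and 76.3 in SW480-45 and at 99.4, 68.6 and 117.7 in SW480-NC, with overlapping groups. Summed per kilobase, the 5 tested light chains that pair with SLC3A2 were 4.47 to 5.07 times the level of SLC3A2 in SW480-45 and 4.75 to 5.75 times in SW480-NC, and these ranges overlapped too.

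Of the free cationic amino acid carriers only SLC7A2, an arginine, lysine and ornithine carrier, was measured. It was at 1548, 3820 and 4567 normalized counts in SW480-45 and at 3923, 3864 and 2565 in SW480-NC. Both lines held a low library, SW480-45 library 1 and SW480-NC library 3, and the groups overlapped over most of their range. The log2 difference of -0.18 had an interval of -1.07 to 0.72, wider than that of the other 24 transporters, and it was 0.30 without SW480-45 library 1.

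The SLC1 family holds the sodium-coupled glutamate carriers and the neutral exchangers of glutamine, serine and alanine. SLC1A1, which carries glutamate, aspartate and cysteine, varied least among the SW480-NC libraries, at 2026, 2062 and 1981 in SW480-45 and at 2319, 2314 and 2285 in SW480-NC. The groups lay apart with SW480-45 at 87.7% of the control, and the log2 difference of -0.19 (95% interval -0.34 to -0.03) had a limma adjusted p of 0.234. SLC1A5, the main glutamine exchanger, was at 23810, 20915 and 19491 in SW480-45 and at 19825, 17044 and 20074 in SW480-NC. Its groups overlapped, with a difference of 0.17 (-0.05 to 0.39, limma adjusted p 0.413). SLC1A4, which prefers serine, alanine and cysteine, was at 1431, 1342 and 1186 in SW480-45 and at 1164, 1082 and 1197 in SW480-NC, also overlapping, with a difference of 0.20 (-0.03 to 0.43). SLC1A3, a glutamate carrier of glial cells, was under the filter at 0 to 10 reads per library.

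The facilitated uniporters let large neutral amino acids pass down their gradient, and the 2 tested had small differences. SLC43A1 was at 1860, 2065 and 1842 in SW480-45 and at 1764, 1749 and 2022 in SW480-NC, a log2 difference of 0.06 (-0.15 to 0.27). SLC43A2 was at 638, 677 and 562 in SW480-45 and at 662, 482 and 656 in SW480-NC, a difference of 0.07 (-0.28 to 0.42). In both the groups overlapped.

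The lysosomal and proton-coupled carriers were the one class with all its members tested, 5 of 5, and 4 of the 5 had a negative difference. SLC36A4, a proline and tryptophan carrier, was at 934, 853 and 1021 normalized counts in SW480-45 and at 1286, 1282 and 1033 in SW480-NC. The groups met without overlap at SW480-45 library 3 and SW480-NC library 3, and the log2 difference was -0.35 (95% interval -0.63 to -0.08, limma adjusted p 0.219). SLC15A4, a histidine and oligopeptide carrier, was at 905, 887 and 987 in SW480-45 and at 1021, 1032 and 1045 in SW480-NC, apart as well, with a difference of -0.16 (-0.35 to 0.04). SLC36A1, a proton-coupled carrier of glycine, alanine and proline, differed by -0.16 (-0.43 to 0.11), and SLC38A9, the arginine sensor that signals to mTORC1, by -0.17 (-0.46 to 0.12). SLC38A7, which exports glutamine from the lysosome, differed by 0.11 (-0.17 to 0.40). For these 3 genes the groups overlapped, within 507 to 1010 normalized counts.

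Levels of different genes were compared as normalized counts per kilobase of merged exons. SLC1A5, the most abundant, averaged 6060 per kilobase over the 6 libraries, followed by SLC7A5 at 5450, SLC38A1 at 2615, SLC38A5 at 1920, SLC38A2 at 1889, SLC3A2 at 1356 and SLC6A6 at 1073. At the other end were SLC38A4 at 22.3, SLC7A8 at 17.2 and SLC6A20 at 8.69. This order is a mean over both lines, and SLC38A5 and SLC38A2 were ordered oppositely in them without overlap. SLC38A5 averaged 1622 and SLC38A2 1917 per kilobase in SW480-45, and 2219 and 1862 in SW480-NC. Of the 24 neighbouring pairs in the order, 17 had library ranges that overlapped. The 7 that lay apart were SLC7A5 over SLC38A1, SLC38A2 over SLC3A2, SLC3A2 over SLC6A6, SLC6A6 over SLC7A11, SLC7A11 over SLC1A1, SLC36A4 over SLC38A9 and SLC3A1 over SLC38A4. SLC6A9 ranked 18 of 25 at a mean of 116 per kilobase, with 147 in SW480-45 and 84.6 in SW480-NC. Its neighbours SLC36A1 and SLC36A4 averaged 110 and 96.7 in SW480-45 and 122 and 124 in SW480-NC. SLC6A9 therefore lay above both in SW480-45 and below both in SW480-NC, in each case without overlap.

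**Figure D3:**
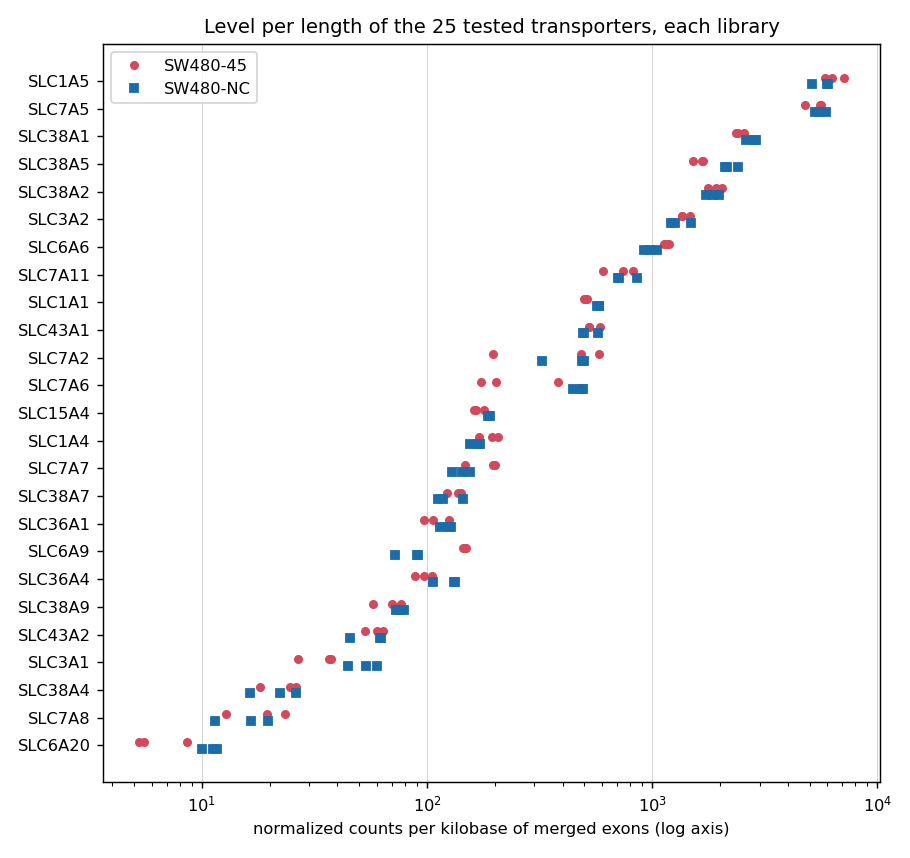
Level of the 25 tested transporters in each library, in normalized counts per kilobase of merged exons (log axis), ordered by the mean of the 6 libraries, with circles for SW480-45 and squares for SW480-NC. SLC1A5 and SLC7A5 lead, SLC6A20 at 8.69 is last, and the spread of SLC7A2 and SLC7A6 within SW480-45 exceeds that of genes of similar level.

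The plot of levels shows the lines apart for some carriers and interleaved for most. Summed over the transporters, the level per kilobase was 23964 ± 563 in SW480-45 and 24400 ± 845 in SW480-NC (SD, n = 3), so the total differed by less than its spread. SLC1A5, SLC7A5 and SLC38A1 together made 56.4 to 61.8% of this sum in SW480-45 and 56.6 to 59.2% in SW480-NC. Within it, the share of SLC38A5 was 6.18 to 7.23% in SW480-45 and 8.64 to 9.67% in SW480-NC, and that of SLC1A5 was 25.04 to 29.2% and 21.8 to 24.2%, and neither pair of ranges overlapped. The median coefficient of variation among the 3 libraries was 9.33% in SW480-45 and 8.33% in SW480-NC, and it was above 25% for 4 transporters in SW480-45 and for 1 in SW480-NC.

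Other genes of amino acid handling were read from lists of the same kind, without a test of the lists. Among 18 further amino acid carriers 8 had a row and 4 were tested. Where 16.2% of all features reached an unadjusted p under 0.05, 1 of these 4 did. This was SLC1A7, a glutamate carrier best known from the retina, at 66.4, 67.7 and 49.0 normalized counts in SW480-45 and at 23.0, 25.1 and 30.7 in SW480-NC. The groups lay far apart at this low level, and the log2 difference of 1.18 (95% interval 0.62 to 1.74) had a limma adjusted p of 0.0869. Of 11 mitochondrial carriers 7 were tested, with a median difference of -0.09. Of these, 1 (14.3%) reached an unadjusted p under 0.05, near the 16.2% of all features. That gene was SFXN1, the mitochondrial serine carrier, with a difference of -0.23 (limma adjusted p 0.157).

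The mTORC1 list, which holds the proteins that report lysosomal amino acids, had a median difference of 0.00 over 14 tested genes of 20, with 1 higher and 2 lower at an unadjusted p under 0.05 (21.4%), near the 16.2% of all features. LAMTOR4, a subunit of the lysosomal scaffold, differed by 0.38 (limma adjusted p 0.197), and RHEB, the GTPase that activates the complex, by -0.34 (limma adjusted p 0.234). The groups overlapped for RHEB and lay apart for LAMTOR4. Of 12 genes of glutamine and glutathione metabolism 10 were tested. At an unadjusted p under 0.05, 1 was higher and 3 were lower (40.0%), beside 16.2% of all features. CTH, which makes cysteine by transsulfuration, differed by 0.72 (limma adjusted p 0.058).

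ATF4, the transcription factor of the amino acid response, and its targets had the highest median of these lists, which were chosen with earlier results known. Of 10 genes 9 were tested, all 9 had a positive difference, with a median of 0.41, and 6 of them (66.7%) reached an unadjusted p under 0.05, beside 16.2% of all features. ASNS, the asparagine synthetase, was at 10919, 10506 and 11429 normalized counts in SW480-45 and at 6550, 6755 and 7459 in SW480-NC. It rose without overlap by 0.66 on the log2 scale (SE 0.07, 95% interval 0.50 to 0.83) with a limma adjusted p of 0.0132, and it lost the call when SW480-45 library 1, SW480-NC library 1 or SW480-NC library 2 was left out, with a largest adjusted p of 0.0672. Without the intensity trend the limma adjusted p of ASNS was 0.115. ATF3 differed by 0.86 (0.14 to 1.59, limma adjusted p 0.24), with overlapping groups. The 4 tested transporters with TGATGNAA in a promoter, SLC1A4, SLC1A5, SLC38A1 and SLC3A2, had differences of 0.20, 0.17, -0.19 and 0.08. Whether these carriers and the ATF4 list differ from each other was not tested.

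The plot of lists shows the transporters spread on both sides of 0, with their 25 points between -0.998 and 0.80. The points of the ATF4 list lie to the right of 0, and the 7 mitochondrial carriers lie to the left of it by at most 0.28. The 4 transporters under the filter, SLC7A9, SLC1A3, SLC6A14 and SLC6A19, had 0 to 10 reads in any library, and a difference between the lines was not detectable for them at this depth.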

How the data were processed

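RNA of 3 SW480-45 and 3 SW480-NC cultures was made into libraries with the NEBNext Ultra kit and sequenced on an Illumina HiSeq instrument by the study. The submitters' notes name bcl2fastq, HISAT2, DESeq2 and GRCh38, and the study's methods name Cuffdiff; the counting tool and its annotation are not given in the sources used here. The deposited values are a signal per gene, which the authors made by dividing gene counts by 1 size factor per library. Dividing by the step of each library gave whole reads for 100% of values (tolerance 0.01). Intervals from so few libraries are wide, and p-values measure the spread between these cultures.

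The main test was limma 3.58.1 (intensity trend, R 4.3.3) on log2(normalized count + 1) over the 21703 features that averaged 10 or more, Benjamini-Hochberg adjusted over all of them. Fold changes on this scale understate those of low genes. Each library's floor was 3 reads. Alternatives fitted the recovered reads with edgeR 4.0.16 or DESeq2 1.42.0, or used another pseudocount, filters, rescalings, a replicate block and leaving out each library. The fits were also run on simulated data whose planted changes were larger than those of the transporters. That run does not cover differences of the size reported here. Coordinates and exon lengths are from GENCODE 29 on GRCh38.

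The transporters and lists were chosen with earlier results of these data known. Values in every library were given for HPSE, for transporters past a threshold with separate groups and for the highest and lowest of each class; of other lists, for genes past the adjusted threshold and the largest difference in each direction at an unadjusted p under 0.05, of which 1 gene is not reported here. Values of SLC38A2, SLC3A2, SLC7A11, SLC7A7, SLC1A1, SLC36A4, SLC7A6OS and PREPL were added to complete their classes. Exact permutation tests of 3 against 3 cannot go below p = 0.1 and were not used.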

Additional observations from a re-analysis of the deposited data

How the results depend on the processing

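Of 18 alternatives, 12 kept all 6 libraries and 6 left 1 out, and 440 of 450 differences of the 25 transporters kept their direction. The number of transporters past the adjusted threshold, 1 in limma as reported, was 2 (SLC6A9 and SLC38A5) with all features of any value, with a minimum mean of 50, with robust variance and with Ensembl genes only, 4 with DESeq2 (SLC7A6 and SLC3A1 as well), and 0 without the intensity trend. It was 0 to 1 when a library was left out, the 1 being SLC7A6 without SW480-45 replicate 3. Over all features, 174 of 21703 passed in the main fit, 825 of 16695 with DESeq2 and 11 of 21703 without the intensity trend. Features passing were 232 of 59192 with any value and 217 of 14365 with a minimum mean of 50. They were 251 of 21703 with robust variance and 148 of 12662 with Ensembl genes only. With a library left out, 29 to 93 of 21703 features passed. The number of transporters at an unadjusted p under 0.05, 10 as reported, was 6 to 11, with 6 without SW480-NC replicate 2. The median difference of -0.07 was -0.0099 after quantile normalization and -0.0802 to 0.0416 when a library was left out, positive without SW480-45 replicate 1. SLC6A9 kept its 0.80 without the intensity trend (adjusted p 0.124) and was 0.69 to 0.86 with a library left out. Over all tested features, the deviations of same-numbered libraries had correlations of -0.0202 to 0.00741. Features with few reads weigh as much as others there, so whether equal numbers mark a shared experiment cannot be told from them. With the replicate numbers as a block, 0 transporters passed the adjusted threshold, where 12 of all 21703 features did, and 7 passed the unadjusted one. In that limma fit SLC6A9 was at 0.80 with an adjusted p of 0.133 and ASNS at 0.66 with 0.0738.

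The 10 differences that turned did so with 1 library left out and had intervals that include 0. Their ranges were -0.11 to 0.011 for SLC7A5, -0.0095 to 0.45 for SLC7A8, -0.17 to 0.0476 for SLC7A11, -0.48 to 0.30 for SLC7A2, -0.0086 to 0.094 for SLC38A2, -0.0898 to 0.25 for SLC38A4 and -0.079 to 0.15 for SLC43A2. The antisense genes also turned, SLC7A6OS from -0.0035 to 0.14 and PREPL from -0.24 to 0.0023. The cause was not tested. Depth limits the 4 transporters with at most 10 reads, and the spread between libraries limits SLC7A2 and SLC7A6.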
